A study of Homo sapiens with 9 samples.

Results

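The genes followed here are 39 genes of the unfolded protein response and the integrated stress response, listed by name for their roles in these pathways. A row of the array table carried the symbol of 37 of them, and all 37 rows were tested, out of 20893 rows tested in all, of which 17705 had a gene symbol. ATF5 and HSP90B1 were not found among the named rows and were not analysed here. The 37 genes fall into 5 stress sensors and their transcription factors, 10 genes of the ATF4 and CHOP branch, 9 genes of amino acid supply, and 13 chaperones, folding factors and degradation factors of the endoplasmic reticulum.

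The cells were L-1236, a Hodgkin lymphoma line, and the study asked what changes in RNA when its lymphotoxin alpha gene, LTA, is knocked out. Clone g2_1 carried the lentiCRISPR v2 vector with a guide to exon 2 of LTA, and clone g3_4 carried the vector with a guide to exon 4. The control cells, labelled v2 and wild type, carried the vector with no LTA guide named. Each of the 3 groups had 3 Clariom S arrays, made from 250 ng of RNA after 72 h in RPMI with heat-inactivated serum. Until those 72 h the clones had lived in conditioned medium from L-1236 cultures. For the control it is not stated whether it had the same medium or was itself a clone, so differences that come with either cannot be told apart from those of the knockout. Each knockout group is 1 single-cell clone. Nothing says that a group's arrays are separate cultures. The p-values thus describe only the spread between these arrays, which may be technical.

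When unfolded proteins build up in the endoplasmic reticulum, 3 membrane sensors respond: IRE1, which splices XBP1 mRNA, PERK, which phosphorylates the translation factor eIF2 alpha, and ATF6, which is cleaved to release a transcription factor. PERK shares its target with kinases that sense amino acid shortage, heme shortage or double-stranded RNA, and this common part is the integrated stress response: most translation drops while ATF4 is translated more and induces CHOP and genes of amino acid supply. Cells that secrete much protein, such as plasma cells, depend on the IRE1 and XBP1 arm. Splicing of XBP1, phosphorylation of eIF2 alpha and cleavage of ATF6 were not measured by these arrays, which give the RNA level of each gene alone.

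Short stretches of promoter are printed here because the factors of the pathway bind known elements, and because the genes that carry them did not move as 1 group. Windows from 250 bases before to 50 bases after the start of transcription were read from a RefSeq promoter table of GRCh38.p14 and searched on both strands for 5 motifs. These were the ER stress response element (CCAAT, then any 9 bases, then CCACG), its second form (ATTGG, then any 1 base, then CCACG), the unfolded protein response element TGACGTGG, the amino acid response element TGATGNAA, and the cyclic AMP response element TGACGTCA. The first 3 all contain CCACG or its complement, and the unfolded protein and cyclic AMP elements begin with the same 6 bases. A window was found for 33 of the 37 genes, all but NUPR1, PSPH, SHMT2 and SLC7A11. The first form of the ER stress response element stood in 5 of the 33 genes and in 0.0769% of the 35116 windows of the table, and its second form stood in 2 genes and in 0.0541% of windows. The amino acid response element stood in 5 genes and in 3.62% of windows, the cyclic AMP response element in 1 gene and in 1.85%, and the unfolded protein response element in 0 of the genes and in 0.729%. Each line gives a match in capitals with 20 bases on either side, on the strand of the gene, 5′ to 3′, and a match is a description of the sequence and not a binding site.
CHAC1, chr15:40953242-40953289, plus strand, amino acid response element in reverse: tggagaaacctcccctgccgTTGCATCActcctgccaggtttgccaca
ATF3, chr1:212565196-212565243, plus strand, amino acid response element: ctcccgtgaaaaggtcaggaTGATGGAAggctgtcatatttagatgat
ASNS, chr7:97872449-97872496, minus strand, amino acid response element: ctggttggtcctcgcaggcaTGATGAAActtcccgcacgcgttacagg
PPP1R15A, chr19:48872343-48872390, plus strand, cyclic AMP response element: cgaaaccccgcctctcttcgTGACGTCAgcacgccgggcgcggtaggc
HSPA5, chr9:125241371-125241429, minus strand, ER stress response element: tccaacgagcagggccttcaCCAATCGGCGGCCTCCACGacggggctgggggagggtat
XBP1, chr22:28800583-28800641, minus strand, ER stress response element: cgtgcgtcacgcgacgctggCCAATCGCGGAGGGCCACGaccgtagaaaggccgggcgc
CRELD2, chr22:49918534-49918592, plus strand, ER stress response element in reverse: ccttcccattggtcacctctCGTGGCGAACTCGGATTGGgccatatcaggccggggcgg
PDIA6, chr2:10812833-10812891, minus strand, ER stress response element: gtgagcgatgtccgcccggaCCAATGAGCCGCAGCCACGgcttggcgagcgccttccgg
CALR, chr19:12938364-12938422, plus strand, ER stress response element in reverse: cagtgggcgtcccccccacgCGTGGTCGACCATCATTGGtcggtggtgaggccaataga
HERPUD1, chr16:56931946-56932055, plus strand, amino acid response element in reverse and then the second form of the ER stress response element: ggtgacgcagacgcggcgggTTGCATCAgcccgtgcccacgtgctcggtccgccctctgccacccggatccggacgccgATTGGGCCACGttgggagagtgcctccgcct
The other matches were the second form of the ER stress response element in SDF2L1 and the amino acid response element in SLC3A2.

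All values are log2 signals after RMA, a normalization that brings all arrays to a similar distribution. LTA itself was 7.97, 7.53 and 7.11 on the arrays of g2_1 and 6.94, 7.25 and 6.61 on those of g3_4, against 11.58, 11.07 and 11.08 on the control arrays. Array medians were 6.15 to 6.19 in the clones and 6.27 to 6.29 in control, so centring each array on its median shifts every log2 fold change up by 0.11. Array 1 of every group was made from RNA with an integrity number of 10, and arrays 2 and 3 from RNA with one of 9.5 to 9.6. Of the markers of Hodgkin and Reed-Sternberg cells, 5 of 5 were measured and none lay at or under 4.64, the lower quartile of all values. Their summed signal, on the log2 scale, was 13.56 to 13.66 in g2_1, 13.41 to 13.53 in g3_4 and 13.24 to 13.47 in control. Within that list TNFRSF8, which encodes CD30, rose in g2_1 (log2 fold change 0.79, adjusted p = 0.000969) and in g3_4 (0.70, adjusted p = 0.00202), and the other 4 were not called. The summed B cell markers, 4 of 5 measured with 1 at or under the quartile, were 8.08 to 8.20 in g2_1 and 8.21 to 8.31 in g3_4, against 8.47 to 8.77 in control. PAX5, the B cell factor among them, fell in g2_1 (-0.79, adjusted p = 0.00825) and in g3_4 (-0.83, adjusted p = 0.00638). The part of these marker differences in the results on stress genes was not tested. Of 4 measured T cell markers 3 lay at or under the quartile, as did 2 of 4 of the monocyte and macrophage list and 0 of 2 of the fibroblast list. The T cell and monocyte sums overlapped between clones and control, and the fibroblast sum was 8.43 to 8.72 in g2_1 and 8.49 to 8.50 in g3_4, against 8.36 to 8.43 in control.

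Stress response genes were lower in the knockout clones more often than they were higher, and the largest differences were those of CHOP and the genes around it. A gene was called at a limma adjusted p under 0.05, with p-values adjusted by Benjamini-Hochberg over all 20893 rows and no limit on the fold. In g2_1, 9 of the 37 genes fell, against 8.06% of all rows, and 2 rose, against 6.19% of all rows. In g3_4, 9 of the 37 fell, against 8.16% of all rows, and 0 rose, against 6.12% of all rows, with 4 higher at an unadjusted p under 0.05. Both comparisons use the same 3 control arrays, so they are not independent. The 8 genes that fell in both clones make up 21.6% of the 37, against 6.97% of all rows. The list was not drawn up blind to these data, so that share is a description. The 8 were ATF6, DDIT3, PPP1R15A, TRIB3, CHAC1, PSAT1, SHMT2 and HSPA5. None rose in both, against 4.48% of all rows, while 2 were higher in both at an unadjusted p under 0.05. On arrays centred on their medians, 7 fell and 4 rose in g2_1, 6 fell and 3 rose in g3_4, and 5 fell and 2 rose in both. No share of all rows is given for centred arrays, so those counts have no background beside them. With the clones averaged, 11 genes fell, against 9.83% of all rows, and 3 rose, against 8.13% of all rows. The median averaged log2 fold change was -0.05 over the 37 genes and 0.04 over all rows, or 0.07 and 0.15 on centred arrays. For 9 of the 37 genes every knockout array was below every control array, against 10.6% of all rows. For 1 gene, EDEM1, every knockout array was above every control array, against 9.7% of all rows. In a whole culture, less RNA in each cell and fewer cells with that RNA cannot be told apart.

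**Figure D1:**
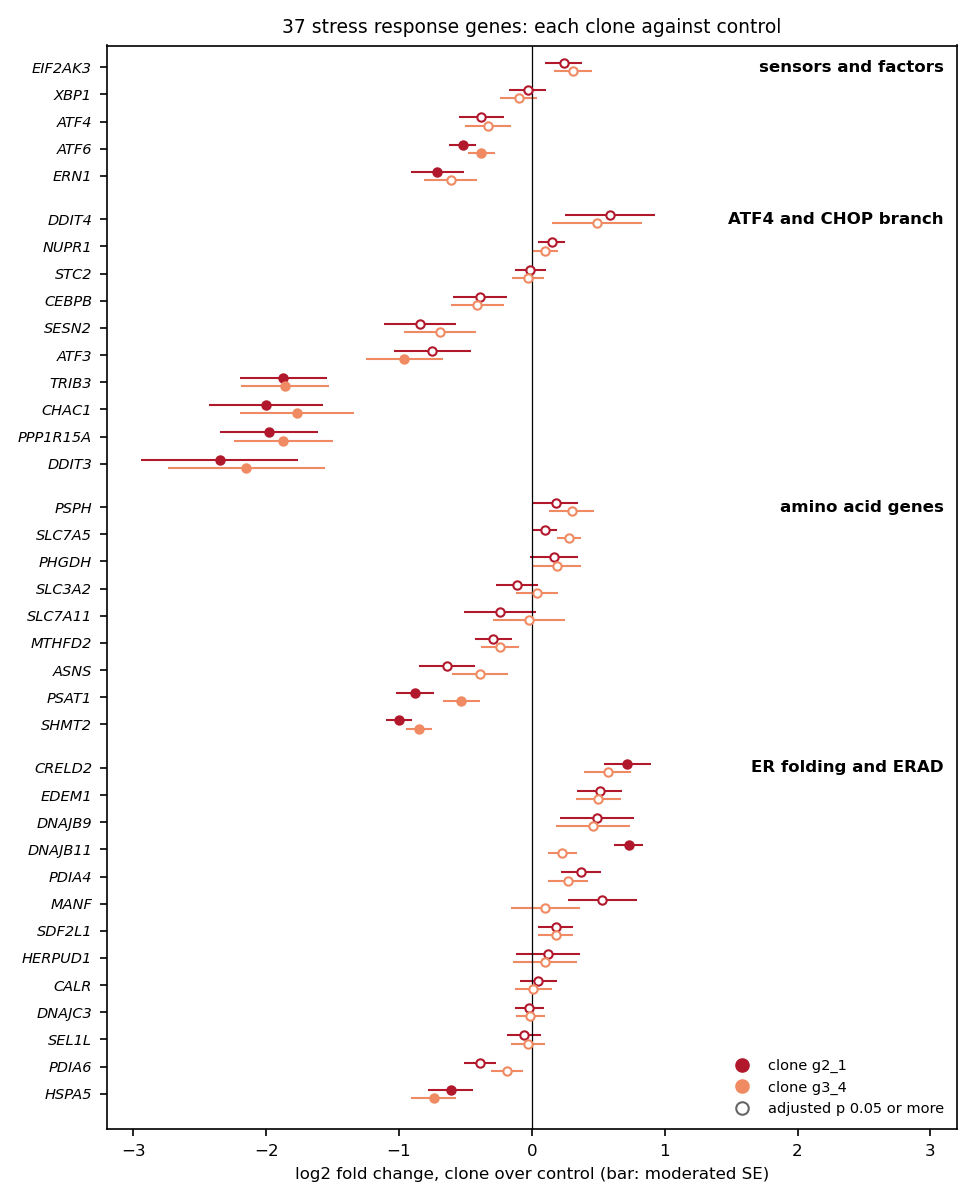
Log2 fold change of each clone over control for the 37 measured genes, in 4 groups by role, with the moderated standard error as bar; dark red is g2_1, orange is g3_4, and filled points have an adjusted p under 0.05. DDIT3, PPP1R15A, CHAC1 and TRIB3 lie farthest to the left in both clones, and the genes of the endoplasmic reticulum lie on both sides of 0.

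Of the 5 sensors and factors, ATF6 fell in both clones, ERN1 fell in g2_1, and the others were not called. ATF6, the membrane-bound factor that is cut to release a transcription factor, was 10.14, 9.91 and 10.09 in g2_1 and 10.21, 10.24 and 10.11 in g3_4, against 10.69, 10.46 and 10.54 in control. Every knockout array was below every control array. Its log2 fold change was -0.52 ± 0.10 in g2_1 (SE, adjusted p = 0.00677) and -0.38 ± 0.10 in g3_4 (adjusted p = 0.0338). The averaged fall of 0.45 was past the threshold in 17 of 17 alternatives, the fall in g3_4 in 8 of 17, with the highest adjusted p, 0.122, without array 3 of g3_4. With only the groups compared, the averaged value was still that of the fit on all 9 arrays, so that alternative could not change it. ERN1, which encodes IRE1, was 7.46, 7.51 and 7.19 in g2_1 and 7.50, 7.38 and 7.58 in g3_4, against 7.55, 8.25 and 8.50 in control. Array 3 of g3_4 overlapped control array 1, and the other knockout arrays lay below all control arrays. ERN1 fell in g2_1 by 0.71 (adjusted p = 0.0406), and in g3_4 its log2 fold change was -0.61 with an adjusted p of 0.075. Averaged, it was -0.66, but -0.59 without control array 2 (adjusted p = 0.102) and -0.46 without control array 3 (adjusted p = 0.104).

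EIF2AK3, which encodes the eIF2 alpha kinase PERK, was 8.23, 8.30 and 8.53 in g2_1 and 8.18, 8.47 and 8.61 in g3_4, against 8.01, 8.28 and 8.05 in control. The groups overlapped, and the averaged log2 fold change of 0.27 had an adjusted p of 0.151. On centred arrays EIF2AK3 was 0.38 (adjusted p = 0.0313). XBP1, the factor whose mRNA IRE1 splices, was 9.95, 10.00 and 9.63 in g2_1 and 9.82, 9.85 and 9.69 in g3_4, against 10.15, 9.80 and 9.72 in control. The groups overlapped, and the averaged difference was -0.07 with a 95% interval from -0.33 to 0.20. The array row for XBP1 gives no separate value for its spliced form. ATF4, the factor translated when eIF2 alpha is phosphorylated, was 10.53, 10.95 and 10.94 in g2_1 and 10.60, 11.00 and 10.97 in g3_4, against 10.90, 11.41 and 11.25 in control. Every group was lowest on its array 1, control array 1 lay within the knockout range, and the averaged log2 fold change of -0.36 had an adjusted p of 0.133. ATF4 passed the threshold in 4 of 17 alternatives: without control array 1 the value was -0.50 (adjusted p = 0.0354), while without control array 2 it was -0.24 (0.412). With knockout and control arrays of the same number set against each other, ATF4 differed by -0.34, -0.44 and -0.29.

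In the ATF4 and CHOP branch, 4 of the 10 measured genes fell in both clones, against 6.97% of all rows, with log2 fold changes from -2.35 to -1.77. The median averaged log2 fold change of the 10 was -0.81, or -0.70 on centred arrays. DDIT3 encodes CHOP, the transcription factor linked to cell death after long stress. It was 5.88, 6.18 and 6.69 in g2_1 and 6.12, 6.44 and 6.78 in g3_4, against 6.82, 9.80 and 9.17 in control. The knockout arrays lay in a band below all control arrays, and control array 1 lay just above the top of that band. DDIT3 averaged 6.25 ± 0.41 in g2_1 and 6.45 ± 0.33 in g3_4, against 8.60 ± 1.57 in control (SD, n = 3 each). It fell, with a log2 fold change of -2.35 ± 0.59 in g2_1 (SE, adjusted p = 0.0219) and -2.15 ± 0.59 in g3_4 (adjusted p = 0.0333). Without control array 2 the averaged value was -1.65 (adjusted p = 0.051), without control array 3 it was -1.96 (0.0495), and without control array 1 it was -3.14 (3.67e-06). The fall in both clones was kept in 9 of 17 alternatives.

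PPP1R15A encodes GADD34, the phosphatase subunit that removes phosphate from eIF2 alpha and so ends the response. It was 7.57, 7.54 and 7.63 in g2_1 and 7.66, 7.74 and 7.67 in g3_4, against 8.43, 10.37 and 9.89 in control. The 6 knockout arrays lay within a narrow range, and all 3 control arrays were above it. PPP1R15A fell, with a log2 fold change of -1.98 ± 0.37 in g2_1 (SE, adjusted p = 0.00416) and -1.87 ± 0.37 in g3_4 (adjusted p = 0.00579), 3.81-fold for the clones averaged. TRIB3, a pseudokinase induced by ATF4 and CHOP that binds AKT, was 7.86, 8.30 and 7.97 in g2_1 and 7.83, 8.22 and 8.12 in g3_4, against 8.93, 10.48 and 10.34 in control. Here too the groups did not overlap, and control array 1 was the lowest control. TRIB3 fell, with a log2 fold change of -1.87 ± 0.33 in g2_1 (adjusted p = 0.00317) and -1.86 ± 0.33 in g3_4 (adjusted p = 0.00336), 3.65-fold for the clones averaged. CHAC1, an enzyme that breaks down glutathione, was 6.85, 7.43 and 7.84 in g2_1 and 7.24, 7.74 and 7.82 in g3_4, against 8.30, 10.35 and 9.46 in control. No knockout array reached the control range, and array 1 was the lowest in each group. CHAC1 fell, with a log2 fold change of -2.0 ± 0.43 in g2_1 (adjusted p = 0.00937) and -1.77 ± 0.43 in g3_4 (adjusted p = 0.0174), and in g3_4 the adjusted p was 0.0727 without array 1 of g3_4. PPP1R15A and TRIB3 kept both calls in 17 of 17 alternatives. The SDs in g2_1, g3_4 and control were 0.05, 0.04 and 1.01 for PPP1R15A and 0.23, 0.2 and 0.86 for TRIB3. For CHAC1 they were 0.5, 0.31 and 1.03. The fit gives each gene a single spread shared by the 3 groups, so these SEs and p-values may understate the uncertainty of the control means. The same holds for DDIT3. No alternative gave a gene its own spread in each group.

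PPP1R15A, TRIB3 and CHAC1 stayed called in both clones whichever control array was left out, though the size of the difference changed with the array. Whether arrays of clones and control with the same number belong together is not stated. With the mean of the knockout arrays of each number set against the control array of that number, PPP1R15A differed by -0.81, -2.73 and -2.24, TRIB3 by -1.08, -2.22 and -2.30, and CHAC1 by -1.26, -2.76 and -1.63. DDIT3 differed by -0.82, -3.49 and -2.43. All 12 of these differences were below 0, which had to be so, because every knockout array lay below every control array for these genes. The least negative difference was at number 1 for each of the 4 genes. DDIT3, PPP1R15A, TRIB3 and CHAC1 each had p = 0.0119 when the 6 knockout arrays were set against the control arrays by exact permutation (two-sided). No smaller p is possible with the 84 regroupings, and only genes whose groups do not overlap can reach this one. These genes were tested because they were called, so the p restates that lack of overlap. Knockout arrays all lay below all control arrays for 10.6% of all rows, and all above for 9.7%. The test also treats the arrays of both clones as 1 group. A single clone against control, with 3 arrays each, cannot go below 0.10 in such a test.

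**Figure D2:**
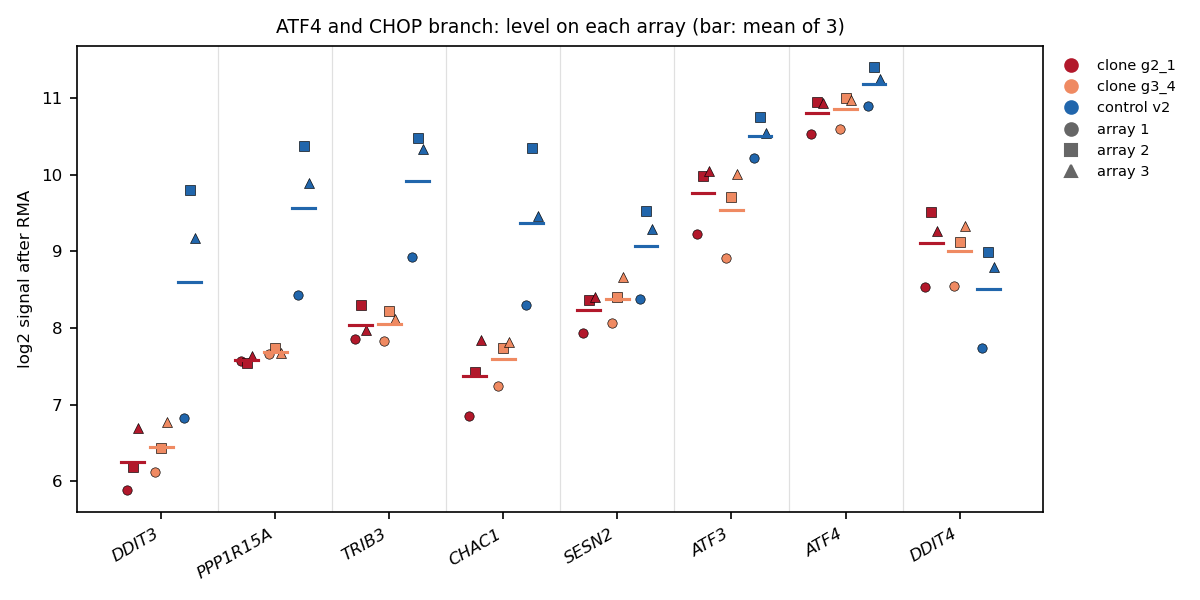
Log2 signal on each of the 9 arrays for genes of the ATF4 and CHOP branch, with the clones left of control, a bar at each group mean and a mark for the array number. Control array 1 lies below control arrays 2 and 3 for DDIT3, PPP1R15A, TRIB3 and CHAC1, and above all knockout arrays.

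The rest of the branch moved less. ATF3, a stress factor of the ATF family, was 9.23, 9.99 and 10.05 in g2_1 and 8.91, 9.71 and 10.01 in g3_4, against 10.22, 10.75 and 10.55 in control. No knockout array reached the control range, and array 1 was lowest in every group. ATF3 fell in g3_4 (log2 fold change -0.96, adjusted p = 0.0475), and in g2_1 it was -0.75 with an adjusted p of 0.121. Averaged, it was -0.86 (0.0357), with an adjusted p of 0.14 without control array 2 and 0.0947 without control array 3. SESN2, a stress-induced inhibitor of the growth kinase mTORC1, was 7.93, 8.36 and 8.40 in g2_1 and 8.07, 8.40 and 8.67 in g3_4, against 8.38, 9.53 and 9.29 in control. Control array 1 lay within the knockout range and the other control arrays above it. SESN2 fell with the clones averaged and in neither clone by itself (-0.76, adjusted p = 0.0453), with an adjusted p of 0.203 without control array 2 and 0.152 without control array 3. DDIT4, another inhibitor of mTORC1 signalling, was 8.54, 9.51 and 9.26 in g2_1 and 8.55, 9.12 and 9.33 in g3_4, against 7.74, 8.99 and 8.80 in control. Array 1 was the lowest of each group and the groups overlapped, and the averaged 0.54 had an adjusted p of 0.265. For DDIT4 that value was 0.16 without control array 1 (adjusted p = 0.742), 0.78 without control array 2 (0.158) and 0.41 without the arrays numbered 1 of all groups (0.0441). CEBPB, a dimer partner of CHOP, had an averaged log2 fold change of -0.40 (adjusted p = 0.166). NUPR1, a small chromatin protein induced by stress, had 0.12 (0.432). STC2, a secreted glycoprotein, averaged 4.57 in g2_1, 4.55 in g3_4 and 4.58 in control, which lies near the lower quartile of all values, so a change there may not be seen.

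Among the 9 genes of amino acid supply, 2 fell in both clones, SHMT2 and PSAT1, against 6.97% of all rows, and the others were not called. The median averaged log2 fold change of the 9 was -0.13, or -0.02 on centred arrays. SHMT2, the mitochondrial enzyme that turns serine into glycine and a one-carbon unit, was 11.92, 12.10 and 11.96 in g2_1 and 12.03, 12.22 and 12.17 in g3_4, against 13.06, 13.06 and 12.86 in control. The knockout arrays were all below the control arrays, and the control arrays lay close together. SHMT2 fell, with a log2 fold change of -1.0 ± 0.10 in g2_1 (SE, adjusted p = 8.01e-05) and -0.85 ± 0.10 in g3_4 (adjusted p = 0.000264), and both calls were kept in 17 of 17 alternatives. PSAT1, a transaminase of serine synthesis, was 11.08, 11.10 and 11.19 in g2_1 and 11.36, 11.53 and 11.52 in g3_4, against 11.68, 12.23 and 12.10 in control. The 3 groups did not overlap, with g2_1 lowest and control highest. PSAT1 fell, with a log2 fold change of -0.88 ± 0.14 in g2_1 (adjusted p = 0.00132) and -0.53 ± 0.14 in g3_4 (adjusted p = 0.0235). The fall in g3_4 was past the threshold in 10 of 17 alternatives, with the highest adjusted p, 0.089, without array 1 of g3_4.

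ASNS, which makes asparagine, was 10.02, 10.37 and 10.24 in g2_1 and 10.23, 10.62 and 10.52 in g3_4, against 10.30, 11.10 and 11.14 in control. Control array 1 lay within the knockout range and the averaged -0.51 had an adjusted p of 0.0793. SLC7A11, the cystine importer, was 8.86, 9.33 and 9.37 in g2_1 and 9.14, 9.58 and 9.52 in g3_4, against 8.69, 9.80 and 9.80 in control. Control array 1 was below all knockout arrays, and control arrays 2 and 3 were above them, and the averaged value was -0.13 (adjusted p = 0.79). Without control array 1 SLC7A11 was -0.50 (adjusted p = 0.0469), and without control array 2 it was 0.06 (0.935). The serine synthesis enzymes PHGDH and PSPH had averaged values of 0.18 (0.501) and 0.24 (0.332), and the folate enzyme MTHFD2 had -0.27 (0.184). PHGDH averaged 4.87 in g2_1, 4.89 in g3_4 and 4.70 in control, near the lower quartile of all values, so a change there may not be seen. The transporter subunits SLC3A2 and SLC7A5 had -0.04 (0.909) and 0.19 (0.144).

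Genes of protein folding in the endoplasmic reticulum went both ways, and the main chaperone was on the lower side: 1 of the 13 fell in both clones, which is 7.69%, against 6.97% of all rows. The median averaged log2 fold change of the 13 was 0.18, or 0.29 on centred arrays. HSPA5 encodes BiP, the chaperone that holds the sensors inactive. It was 11.08, 11.08 and 10.84 in g2_1 and 11.04, 10.85 and 10.71 in g3_4, against 11.95, 11.67 and 11.20 in control. No knockout array reached the control range, and control array 1 was the highest control, the opposite of its place for DDIT3. HSPA5 fell, with a log2 fold change of -0.61 ± 0.17 in g2_1 (SE, adjusted p = 0.0409) and -0.74 ± 0.17 in g3_4 (adjusted p = 0.0158). Its averaged fall was past the threshold in 17 of 17 alternatives, the fall in g2_1 in 7 of 17, with the highest adjusted p, 0.144, without array 3 of g2_1. ATF6, PSAT1, SHMT2 and HSPA5 each had p = 0.0119 in the exact permutation test of 6 against 3 arrays, which again restates that their groups do not overlap.

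DNAJB11, a co-chaperone of BiP, was 10.16, 10.11 and 10.00 in g2_1 and 9.57, 9.61 and 9.60 in g3_4, against 9.60, 9.22 and 9.27 in control. The arrays of g2_1 stood above all others, while those of g3_4 overlapped control array 1. DNAJB11 rose in g2_1 (0.73 ± 0.11, adjusted p = 0.00141), and in g3_4 it was 0.23 with an adjusted p of 0.241. CRELD2, a folding factor of the endoplasmic reticulum, was 7.87, 7.88 and 7.65 in g2_1 and 7.77, 7.73 and 7.43 in g3_4, against 7.49, 7.01 and 6.73 in control. Only array 3 of g3_4 reached down to the highest control array. CRELD2 rose in g2_1 (0.72 ± 0.18, adjusted p = 0.0195), with an adjusted p of 0.0631 without control array 2 and 0.0564 without control array 3, and in g3_4 it was 0.57 with an adjusted p of 0.0586. EDEM1, which marks misfolded glycoproteins for degradation, was 10.51, 10.67 and 10.61 in g2_1 and 10.56, 10.57 and 10.64 in g3_4, against 9.65, 10.16 and 10.46 in control. No control array reached the knockout range, and EDEM1 rose with the clones averaged (0.50, adjusted p = 0.0366) but had 0.28 (0.0869) without control array 1 and 0.54 (0.0748) without control array 2. CRELD2 and HSPA5 both hold the ER stress response element printed above.

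Of the other folding genes, DNAJB9, a co-chaperone that restrains IRE1, was 9.28, 9.71 and 9.61 in g2_1 and 9.33, 9.61 and 9.57 in g3_4, against 8.22, 9.56 and 9.35 in control. HERPUD1, a membrane factor of degradation, was 10.89, 11.00 and 11.00 in g2_1 and 10.86, 11.01 and 10.98 in g3_4, against 10.15, 11.32 and 11.07 in control. For both genes control array 1 lay below every other array, and the averaged values were 0.48 (adjusted p = 0.241) and 0.11 (0.793). Without control array 1 they were 0.06 for DNAJB9 (adjusted p = 0.81) and -0.24 for HERPUD1 (0.139). MANF, a secreted factor kept in the endoplasmic reticulum by BiP, was 8.22, 8.35 and 7.86 in g2_1 and 7.90, 7.65 and 7.59 in g3_4, against 8.30, 7.42 and 7.11 in control. Control array 1 was above every array but array 2 of g2_1, and the averaged 0.32 had an adjusted p of 0.404. Without control array 1, however, MANF was 0.66 (adjusted p = 0.00868), and without control array 3 it was 0.07 (0.893). The remaining averaged log2 fold changes were 0.32 for the disulfide isomerase PDIA4, -0.29 for the isomerase PDIA6 and 0.18 for SDF2L1, a partner of DNAJB11. They were 0.03 for the calcium-binding chaperone CALR, -0.02 for the co-chaperone DNAJC3 and -0.05 for SEL1L, the scaffold of a degradation ligase. None of these 6 was called in either clone or averaged.

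**Figure D3:**
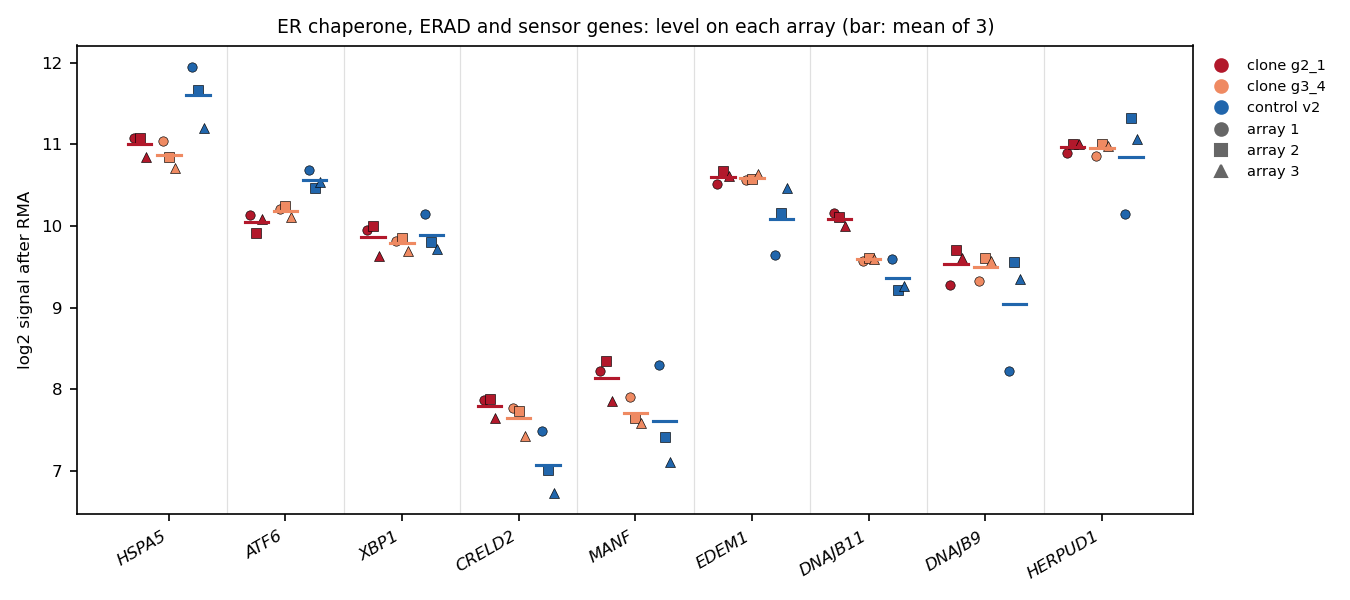
Log2 signal on each of the 9 arrays for sensors and for folding genes of the endoplasmic reticulum, with the clones left of control, a bar at each group mean and a mark for the array number. HSPA5 and ATF6 lie lower on all knockout arrays, EDEM1 lies higher on all of them, and XBP1 overlaps throughout.

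No gene of the 37 was called between the clones. With g2_1 set against g3_4, 0 of the 37 genes were higher and 0 were lower at a limma adjusted p under 0.05, against 0.0191% and 0.0335% of all rows. At an unadjusted p under 0.05, 1 gene was higher and 1 was lower. The higher one was DNAJB11, by 0.50 with a 95% interval from 0.25 to 0.75 (adjusted p = 0.364), and this was the largest difference of the 37. The lower one was PSAT1, by -0.35 with an interval from -0.65 to -0.05. For DDIT3 the interval ran from -1.50 to 1.11, which is wide enough to hold a difference of 1 log2 unit either way. The median half-width of the interval over the 37 genes was 0.37.

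The control arrays differed widely among themselves in these genes. No test is possible between single arrays, and the values are given as a description. The 3 control arrays ranged over at least 1 log2 unit for 10 of the 37 genes, which is 27.0%, against 3.94% of all rows. In g2_1 such a range was seen for 0 of the 37, against 0.402% of all rows, and in g3_4 for 1, ATF3, against 0.402% of all rows. Control array 2 was at least 1 log2 unit above array 1 for 9 of the 37 genes, against 1.2% of all rows, and below it for 0, against 1.39% of all rows. Control array 3 was that far above array 1 for 7 genes, against 1.6% of all rows, and below it for 1 gene, MANF, against 1.55% of all rows. Control arrays 2 and 3 were at least 1 log2 unit apart for 0 of the 37, against 0.148% of all rows. Control array 1 thus stood apart from arrays 2 and 3, and the weights that limma estimated over all rows were 1.41 for array 2, 0.89 for array 3 and 0.287 for array 1.

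The difference had opposite signs in the CHOP branch and in most folding genes. DDIT3 on control arrays 2 and 3 was 2.98 and 2.35 above array 1, PPP1R15A was 1.94 and 1.46 above, TRIB3 was 1.55 and 1.41 above, and CHAC1 was 2.05 and 1.16 above. The medians of control array 2 minus array 1 were 1.20 for the ATF4 and CHOP branch, 0.53 for amino acid supply, -0.38 for folding genes and -0.02 for all rows. For array 3 minus array 1 they were 0.98, 0.42, -0.33 and -0.02 in the same order of groups. Array 1 was the lowest control array for 8 of the 10 genes of the branch, 8 of the 9 genes of amino acid supply and 4 of the 13 folding genes, and the highest for 9 of those 13. Over all rows it was the lowest for 34.9% and the highest for 40.8%.

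Array 1 of each clone was also low for these genes within its group, over smaller distances. In g2_1, array 1 was the lowest for 8 of the 10 genes of the branch and 8 of the 9 genes of amino acid supply, against 32.6% of all rows. In g3_4 it was the lowest for 9 of the 10 and 7 of the 9, against 35.3% of all rows. The branch medians of array 2 minus array 1 and of array 3 minus array 1 were 0.42 and 0.33 in g2_1 and 0.33 and 0.51 in g3_4, against 1.20 and 0.98 in control. Array 1 also had the higher RNA integrity number in each group, and the part of RNA quality in these differences was not tested. With knockout and control arrays of the same number set against each other, the branch median was -0.60 for number 1, -1.02 for number 2 and -0.69 for number 3. The median for amino acid supply was 0.24, -0.35 and -0.36, and that for folding genes was 0.21, 0.19 and 0.10.

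**Figure D4:**
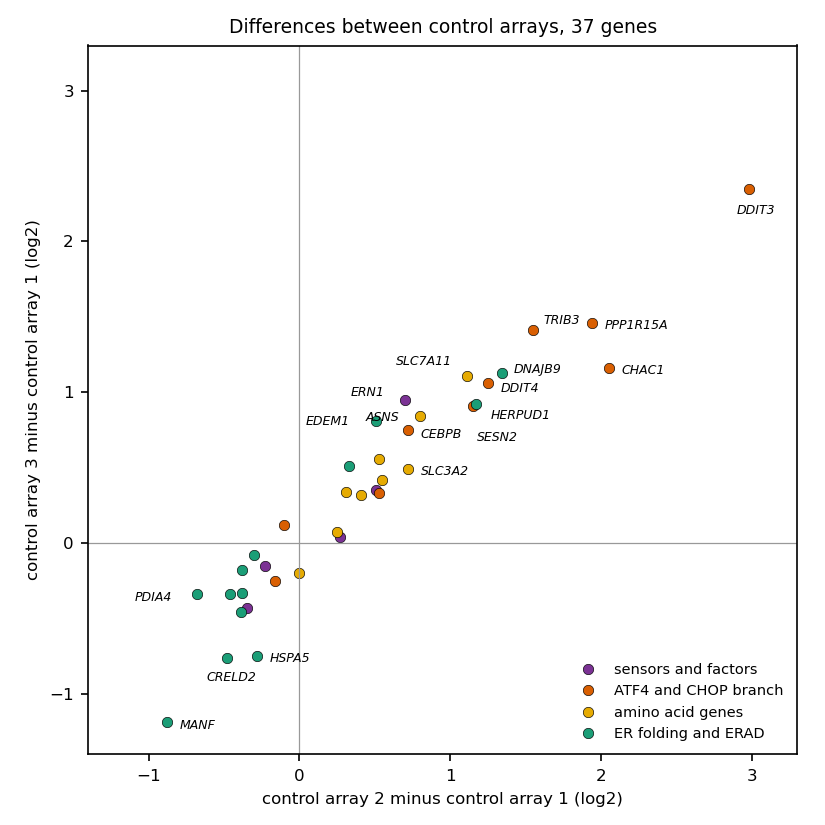
Difference of control array 2 from control array 1 (horizontal) and of control array 3 from control array 1 (vertical), in log2 units, 1 point for each of the 37 genes, coloured by role. DDIT3, PPP1R15A, CHAC1 and TRIB3 lie at the upper right, and MANF, CRELD2, HSPA5 and PDIA4 lie at the lower left.

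Leaving out control array 1 changed both which genes were called and how many. Without it 11 of the 37 genes fell in both clones, and 6 of them were among the 8 above: DDIT3, PPP1R15A, TRIB3, CHAC1, PSAT1 and SHMT2. ERN1, CEBPB, SESN2, ASNS and MTHFD2 were called in addition, and ATF6 and HSPA5 were not called in both. DNAJB11, PDIA4 and CRELD2 rose in both clones without it. Without control array 2 the count of genes that fell in both was 5 (ATF6, PPP1R15A, TRIB3, CHAC1 and SHMT2), and without control array 3 it was also 5 (PPP1R15A, TRIB3, CHAC1, SHMT2 and HSPA5). PPP1R15A, TRIB3, CHAC1 and SHMT2 fell in both clones whichever control array was left out. Without array 1, array 2 or array 3 of g3_4 the count was 4 each time, with PPP1R15A, TRIB3 and SHMT2 among them. For fits with an array left out, the share of all rows is not given.

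The chromosomal neighbours of the genes that fell in both clones had medians from -0.17 to 0.07, beside 0.04 for all rows. The named genes next to each of them on the chromosome, up to 25 on each side with a mean above the median of all rows, had median averaged log2 fold changes of -0.17 for the neighbours of DDIT3 and of SHMT2, -0.08 for those of ATF6, -0.04 for those of HSPA5 and -0.01 to 0.07 for those of the other 4. DDIT3 and SHMT2 both lie on chromosome 12 and had the same neighbour medians in each clone, -0.19 in g2_1 and -0.2 in g3_4. Their sets of neighbours may share genes, and each may hold the other gene, so these medians are not separate observations. For DNAJB11, which rose in g2_1, the neighbours' median was 0.48 in g2_1 and 0.20 in g3_4, beside its own 0.73 in g2_1 and 0.23 in g3_4.

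Other genes of the same pathways were followed in lists by function. Of 12 measured eIF2 kinases, phosphatase partners and subunits of eIF2 and eIF2B, 2 fell and 1 rose in both clones, against 6.97% and 4.48% of all rows. PPP1R15B, the constitutive counterpart of GADD34, fell by 0.59 averaged (adjusted p = 0.0017), and EIF2AK2, the kinase PKR that senses double-stranded RNA, fell by 0.61 (adjusted p = 0.00542). EIF2AK4, the kinase GCN2 that senses amino acid shortage, rose by 0.39 (adjusted p = 0.0114). Of 16 measured aminoacyl-tRNA synthetases, many of them ATF4 targets, 2 fell in both clones, which is 12.5%, against 6.97% of all rows. They were NARS1, by 0.70, and WARS1, by 0.60, and 0 rose in both, against 4.48% of all rows. Against control, 7 of the 16 fell in g2_1 and 3 in g3_4, where 8.06% and 8.16% of all rows fell, and the difference between those counts was not tested. Of 26 other measured targets of ATF4 and CHOP, 3 fell in both, which is 11.5%, against 6.97% of all rows, and 1 rose, against 4.48%. CARS1 is in this list and in that of the synthetases. The 3 that fell were the amino acid transporter SLC1A4 by 1.60, the proline enzyme ALDH18A1 by 0.78 and the glycine transporter SLC6A9 by 0.62. EIF4EBP1, which restrains cap-dependent translation and is a target of ATF4, rose by 0.88 (adjusted p = 0.00655), so the ATF4 targets did not all go the same way. SLC1A4 was 5.12, 4.94 and 5.39 in g2_1 and 6.43, 5.84 and 5.90 in g3_4, against 7.22, 7.21 and 7.18 in control.

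Of 39 other measured genes of folding, transport and degradation at the endoplasmic reticulum, 3 fell and 3 rose in both clones, against 6.97% and 4.48% of all rows. The 3 that fell are 7.69% of the list, near the share of all rows. CREB3, a membrane-bound factor related to ATF6, was 8.55, 8.50 and 8.41 in g2_1 and 8.44, 8.48 and 8.45 in g3_4, against 9.81, 9.48 and 9.52 in control. The groups stood well apart, and CREB3 fell by 1.13 averaged (adjusted p = 1.03e-05). VCP, the ATPase that pulls proteins out of the membrane for degradation, fell by 0.67, and HYOU1, a large chaperone that works with BiP, fell by 0.47. CREB3 and VCP both lie on chromosome 9, and chromosomal neighbours were not examined for the genes of these lists. WFS1, a membrane protein that lowers ATF6 activity, rose by 0.64, the translocation factor SEC62 by 0.55 and CREB3L2, another relative of ATF6, by 0.49. These genes were taken by the largest averaged change among those called in both clones.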

How the data were processed

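RNA of 9 samples was hybridised to human Clariom S arrays, 3 for each clone and 3 for control. Per the submitters' processing notes, the authors used Transcriptome Analysis Console 4.0 and RMA, which corrects the background, equalises the distribution of the arrays and sums up probes, so the deposited values are log2 signals. Detection flags and the genome build are not given in the sources used here. Gene symbols came from the platform annotation, and all 17705 gene IDs matched RefSeq. Of 21448 rows, 555 marked as unmapped were left out and 3188 of the tested rows were unnamed.

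Samples were grouped by their labels. limma 3.58.1 in R 4.3.3 (lmFit, eBayes) was fitted on all 9 arrays and 20893 rows, with 1 coefficient for each group and no block, two-sided, with Benjamini-Hochberg adjustment over all rows and a threshold of 0.05. The fit was tested on simulated data before use. The simulated arrays were independent, with the same spread in every group, so that test does not cover unequal spreads or arrays that vary together. The number of arrays limits the precision. The 39 genes and all lists were chosen with earlier results of these data known. Values on every array are given for genes called in both clones, genes whose control arrays range over at least 1 log2 unit, and for ERN1, EIF2AK3, ATF6, XBP1, ATF4, DDIT3 and HSPA5. From the lists of other genes the text takes up to 3 risen and 3 fallen genes with the largest averaged change among those called in both clones. ATF3, ASNS, DNAJB11, CRELD2 and EDEM1 were added after their values were seen.

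Whether same-numbered arrays pair was checked by the correlation of their deviations from the group means. Between the clones it was 0.435, 0.191 and 0.310 for numbers 1, 2 and 3. Between clone and control it was 0.0426 to 0.298, under 0.1 for number 2, so no pairing was assumed there. Alternatives were centring of the arrays, a filter on low rows, only the groups compared, a trended and robust prior, weights for arrays or for groups, the replicate number as a block, no arrays numbered 1, and each array left out in turn, 17 in all.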

Additional observations from a re-analysis of the deposited data

How the results depend on the processing

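Of the 8 genes that fell in both clones, PPP1R15A, TRIB3 and SHMT2 kept both calls in 17 of 17 alternatives, CHAC1 in 16, PSAT1 in 10, DDIT3 in 9, ATF6 in 8 and HSPA5 in 7. The 8 became 5 on centred arrays, where 4 genes rose in g2_1, 3 in g3_4 and 2 (EDEM1 and CRELD2) in both. This centring shifts all fold changes by 0.11. The 8 became 4 with only the groups compared in the fit, where 5 fell in g3_4, and fewer arrays then share the spread. With rows above the median level only, 2 rose in g3_4 and 1 in both, and with a trended and robust prior 1 rose in g3_4. With array weights 12 fell and 5 rose in g2_1, 13 fell and 2 rose in g3_4, and 11 fell and 2 rose in both. The 11 were the 8 with ERN1, SESN2 and ASNS. With the replicate block, 14 fell and 4 rose in g2_1, 3 rose in g3_4, and in both clones 11 fell, ATF4 among them (averaged -0.36, adjusted p = 0.00819), and 3 rose, DDIT4 among them (0.54, 0.00838). The clone arrays numbered 2 correlated best with control array 3, by small margins (0.109 against 0.0426 in g2_1, 0.0993 against 0.0565 in g3_4). Those numbered 1 and 3 correlated best with the control array of the same number. Whether the numbers pair clones with control is thus not settled. Without the arrays numbered 1, 15 fell and 5 rose in g2_1, 1 rose in g3_4 and 1 in both, and 12 fell in both, 6 of them among the 8. With each array left out in turn, 6 to 13 genes fell and 1 to 4 rose in g2_1, 4 to 13 fell and 0 to 3 rose in g3_4, and 4 to 11 fell and 0 to 3 rose in both. Among the genes recomputed singly, XBP1, HERPUD1 and SLC7A11 changed sign and were not called on the other side of 0. STC2, SLC3A2, DNAJC3 and SEL1L lie less than that 0.11 below 0, so centring turns their sign too. XBP1 was 0.04 on centred arrays, 0.02 with array weights, 0.03 without the arrays numbered 1, and -0.15 to 0.06 with single arrays left out. HERPUD1 was -0.13 with array weights, -0.20 without the arrays numbered 1, and -0.24 to 0.35 with single arrays left out, and SLC7A11 was -0.50 to 0.06. With a weight for each group 8 fell in g3_4, where 9 had fallen and ATF3 was lost, and the other counts stayed. No gene was called between the clones in any alternative that was run. Except where named, the cause was not tested. No share of all rows is given for the alternatives.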

Other observations

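Genes of neighbouring stress pathways were also measured. Of 15 measured genes of the cytosolic heat shock response, 3 rose and 1 fell in both clones, against 4.48% and 6.97% of all rows. BAG3, a co-chaperone and a target of heat shock factor, was 9.31, 9.40 and 9.29 in g2_1 and 9.34, 9.43 and 9.27 in g3_4, against 8.80, 8.71 and 8.71 in control. The groups did not overlap, and BAG3 rose by 0.60 averaged (adjusted p = 0.000338). STIP1, which links the large heat shock chaperones, rose by 0.46, and HSPA1A rose by 0.42. HSPA1A has a near-identical copy in HSPA1B, so its row is uncertain. DNAJA1, a cytosolic co-chaperone, was 10.46, 10.43 and 10.46 in g2_1 and 10.16, 10.43 and 10.24 in g3_4, against 11.33, 11.04 and 11.02 in control, and fell by 0.77 (adjusted p = 0.000287). It lies on chromosome 9, as do CREB3 and VCP, and its chromosomal neighbours were not examined.

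A further list holds NRF2 itself (NFE2L2), the factor of the oxidative stress response, together with KEAP1 and targets of NRF2. Of its 13 measured genes, 3 fell and 0 rose in both clones, against 6.97% and 4.48% of all rows. GSR, which regenerates glutathione, was 8.69, 8.67 and 8.49 in g2_1 and 8.55, 8.55 and 8.35 in g3_4, against 9.73, 9.40 and 9.27 in control. The groups did not overlap, and GSR fell by 0.92 averaged (adjusted p = 0.00021). GCLC, a subunit of the enzyme that starts glutathione synthesis, fell by 0.66, and thioredoxin, TXN, fell by 0.52.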
